A study of Homo sapiens with 16 samples.

Results

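NIK, IKKα, TRAF3, TRAF1, TRAF5 and cIAP1 are proteins of the alternative NF-κB pathway and of the receptors that feed it, and the mRNA levels of their genes (MAP3K14, CHUK, TRAF3, TRAF1, TRAF5 and BIRC2) are described here across 8 human B-cell lines. The genes were found through the array's annotation, taking every probe set that it assigns to exactly 1 of these 6 symbols. That gave 9 probe sets of the 41091 with 1 gene, and 6 genes of the 19775 measured. The probe set with the highest mean signal stood for its gene. All 6 genes passed the filter on dim signals, as did 12305 genes in all.

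The study treated mantle cell lymphoma lines, a name that the markers given below did not bear out in JVM-13 and only partly in JVM-2. The treatment was AFN700, an inhibitor of the kinase IKKβ, at 5 µM for 20 h, or the solvent DMSO at 0.025%. By the labels, REC-1 and SP49 are sensitive to "stn" and ibrutinib. JVM-2, JVM-13, Maver-1, Z-138, HBL-2 and GRANTA-519 are insensitive. Ibrutinib inhibits the B-cell receptor kinase BTK, and the labels do not spell out "stn". Each line has 1 DMSO and 1 AFN700 array, 16 arrays in all, so the line is the replicate and no line has a repeat culture of 1 treatment. The medium was RPMI except for GRANTA-519, kept in DMEM, and held 10% fetal bovine serum throughout. The treated JVM-13 array is titled AFN700, while its treatment label reads AFN701, and it is used here as AFN700.

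In resting B cells, a complex of TRAF3 with a TRAF partner and cIAP1 marks the kinase NIK for degradation. When receptors such as CD40, BAFF-R or the lymphotoxin-β receptor are engaged, TRAF3 is degraded instead, NIK accumulates and activates IKKα, and IKKα drives processing of the NF-κB2 precursor p100. Loss of TRAF3 or cIAP function, and excess NIK, are known ways in which B-cell malignancies switch this pathway on. mRNA levels do not report NIK protein, which is controlled mainly by its degradation.

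B-cell markers were present in every line, with MS4A1 (CD20) between 3177.8 and 5321.5 on the DMSO arrays. The mantle cell lymphoma markers differed between lines. SOX11 lay at 0.1 in JVM-2 and 1.4 in JVM-13 under DMSO, against 584 or more in the other 6 lines. CCND1 (cyclin D1) lay at 78.7 in JVM-2, above the 60th percentile of that array (23.2), and at 4.8 in JVM-13. Of the 4 markers listed, limma called 3 lower and 1 higher in each of these lines against the other 7. Of all tested genes, 17.4% were called lower in JVM-2 and 28.9% in JVM-13, and 17.4% and 17.7% higher. T-cell receptor genes CD3D and CD3E were seen in REC-1, at 141.3 and 89.1 under DMSO. Among the arrays, that of JVM-13 under DMSO was apart from the rest: the median of its tested genes, on the log2 scale, was 7.25, while those of the 7 remaining DMSO arrays lay between 7.82 and 8.01. Its correlation with the AFN700 array of the same line was 0.924, against 0.964 to 0.990 in the other lines. HBL-2 and JVM-13 had the largest median log2 shifts with AFN700, 0.17 and 0.27. Values are linear intensities, and log2 differences are taken on log2(intensity + 3.3), which understates differences of dim genes.

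TRAF3 was nearly without signal in Maver-1, and TRAF5 was very low in Z-138; these were the largest member differences of a line from the others. TRAF3, the adaptor that holds NIK in the degrading complex, measured 0.4 in Maver-1 under DMSO and 4.2 with AFN700. In the other 7 lines it ran from 179.9 in SP49 to 410.4 in JVM-13 under DMSO, and from 156 in GRANTA-519 to 421.2 in Z-138 with AFN700. Maver-1 was far below every other line in both treatments. By the gap to the nearest line, described further below, 3.97% of tested genes had the same line apart in both treatments. The second TRAF3 probe set gave the same picture, at 5.4 and 3.4 in Maver-1 against 117.6 to 482.1 in the other lines under DMSO. Against the mean of the other 7 lines, TRAF3 in Maver-1 was lower by a log2 difference of -5.67 ± 0.29 (SE, limma, adjusted p = 6.06e-08). Both Maver-1 values are below the 60th percentile of their arrays, so the size of this difference depends on the pseudocount. With the percentile (27.2 and 26.6) in their place, TRAF3 was at least 8.86-fold lower in Maver-1. The second probe set gave -4.65 ± 0.26 when every probe set was tested on its own (adjusted p = 1.4e-07). Without JVM-13 the difference was -5.57. The actin 3′ to 5′ signal ratio, a sign of RNA quality, was also highest in Maver-1 under DMSO, at 10.3 against 1.90 to 5.06 elsewhere, and its part in the low TRAF3 signal was not tested. In bulk RNA, fewer cells with a transcript and less of it per cell cannot be told apart.

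**Figure D1:**
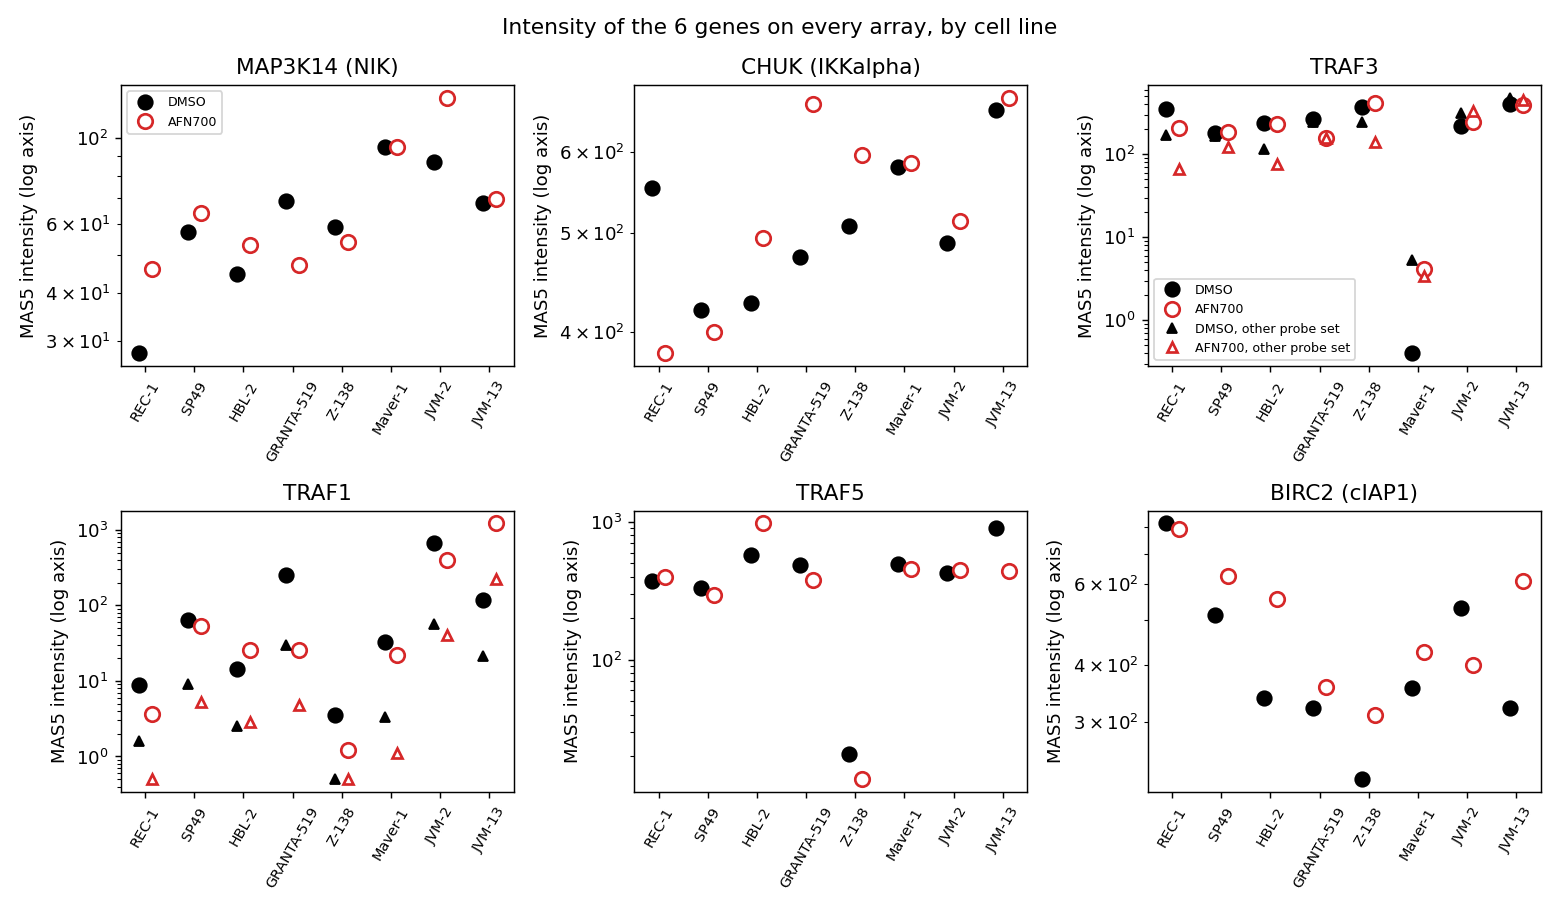
MAS5 intensity on a log axis for the 6 genes, by cell line, with filled symbols for DMSO and open symbols for AFN700. Circles are the probe set that stands for the gene and triangles the second TRAF3 and TRAF1 probe sets, and the axes differ between panels; the second TRAF5 probe set, at 0.2 to 4 under DMSO and never above the 60th percentile of its array, is not drawn. TRAF3 sits near the bottom of its axis in Maver-1 only, and TRAF5 in Z-138 only.

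TRAF5, an adaptor of CD40 and other TNF receptors, measured 20.6 in Z-138 under DMSO and 13.6 with AFN700. The other 7 lines ran from 329.4 in SP49 to 906.2 in JVM-13 under DMSO, and from 294.7 in SP49 to 976 in HBL-2 with AFN700. Both Z-138 values lay below those of every other line. The log2 difference of Z-138 from the mean of the other lines was -4.56 ± 0.27 (SE, limma, adjusted p = 7.29e-08), and -4.49 without JVM-13. Both Z-138 values are also below that percentile, and with it in their place TRAF5 was at least 16.3-fold lower.

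These line tests use the spread between the 2 arrays of a line, which were treated differently, and not between cultures of 1 treatment. They call many genes at an adjusted p under 0.05: 46.5% of tested genes in JVM-13, 34.9% in JVM-2, 33.9% in REC-1, 31.1% in both HBL-2 and Z-138, 30.3% in Maver-1, 27.4% in SP49 and 26.8% in GRANTA-519. Of the 48 member and line pairs, 15 were called (31.2%), against 32.7% of all gene and line pairs, a share near the background. A stricter test used only the 8 DMSO arrays and the spread between the other 7 lines. It called 2 of the 48 pairs, TRAF3 in Maver-1 (log2 difference -6.26 ± 0.62, adjusted p = 0.00935) and TRAF5 in Z-138 (-4.36 ± 0.59, adjusted p = 0.0218). In that test 0.0406% of the genes were called lower in Maver-1, or 5 of 12305, and 0.138% in Z-138. Over all lines and both directions it called 1076 of the 98440 gene and line pairs. Of these, 821 were genes called lower in JVM-13.

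**Figure D2:**
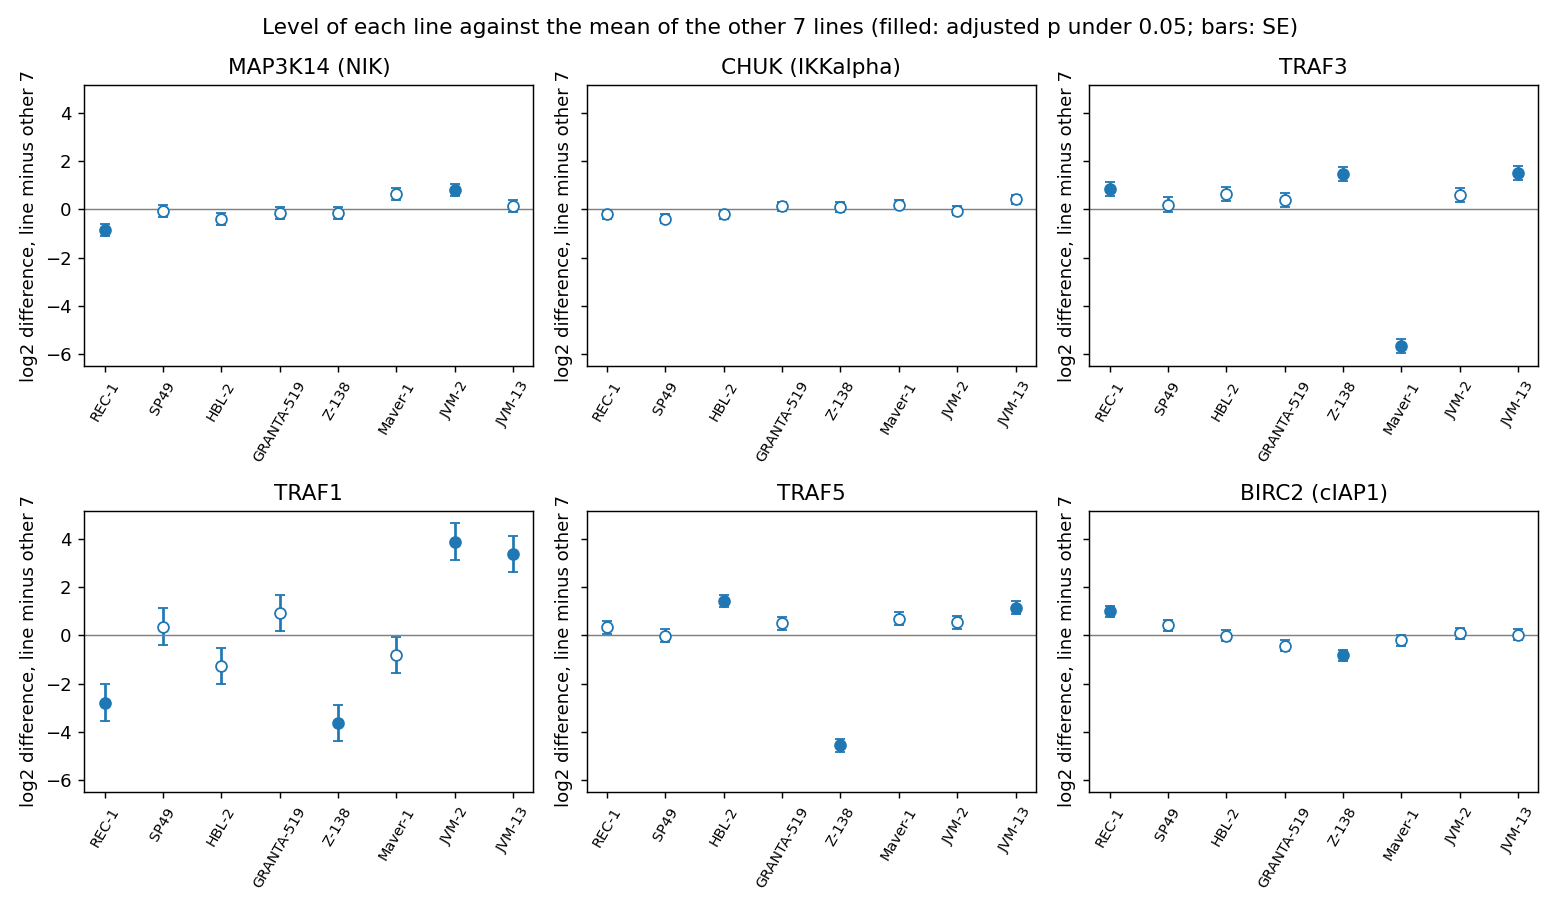
Log2 difference of each line from the mean of the other 7, over its DMSO and AFN700 arrays, for the 6 genes; bars are the limma SE and filled points have an adjusted p under 0.05. The 2 lowest points are TRAF3 in Maver-1 (-5.67) and TRAF5 in Z-138 (-4.56), and no point of CHUK is filled.

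TRAF3's promoter is shown because TRAF3 has the largest line difference and is the only member whose promoter window held a κB match. RefSeq windows of 250 bases before to 50 after a start (GRCh38.p14) were found for all 6 genes, 11 in number. The stretch is the 250 bases before the annotated start, chr14:102777199-102777448, plus strand, with the match in capitals.
TRAF3: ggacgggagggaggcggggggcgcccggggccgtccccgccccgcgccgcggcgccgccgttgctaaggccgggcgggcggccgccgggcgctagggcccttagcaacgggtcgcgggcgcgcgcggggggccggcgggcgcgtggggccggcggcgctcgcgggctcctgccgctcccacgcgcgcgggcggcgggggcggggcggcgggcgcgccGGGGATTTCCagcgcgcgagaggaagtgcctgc
The match begins 33 bases before the start, on the gene's strand. The search used the κB consensus on both strands, and 11.3% of 35116 such windows hold it. The stretch is 86.4% G and C, against a median of 58.0% over all windows. The match is a description of letters and not a measured binding site.

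The genes beside these were then read in chromosome order, 5 tested genes on each side, a choice made after the values were seen. Beside TRAF3 on chromosome 14, the next 2 tested genes were also low in Maver-1. CDC42BPB, a kinase of the cytoskeleton, measured 0.6 and 0.7 there, against 10.1 to 113.9 in the other lines under DMSO. Its log2 difference was -3.06 ± 0.29 (limma, adjusted p = 6.51e-06). Both Maver-1 values lay below the 60th percentile of their arrays. So did those of HBL-2 (10.1), Z-138 (11.4), GRANTA-519 (23.4) and SP49 (24.4) under DMSO. The size of this difference therefore depends on the pseudocount. TNFAIP2, a TNF-induced gene (-4.16), measured 6.7 and 9.5 in Maver-1 and also 2.3 and 3.8 in Z-138, against 146.1 or more under DMSO elsewhere. RCOR1, the nearest on the other side (-0.38), and EIF5, beyond TNFAIP2 (0.04), were not called. Farther out, CINP on one side (-1.02, adjusted p = 0.0131) and CKB on the other (-1.18, adjusted p = 0.00883) were called lower. In all, 4 of the 10 neighbours were lower in Maver-1, against 14% of all tested genes, a count also seen beside uncalled members. Against the spread between the other lines on the DMSO arrays, none of the 10 was called (smallest adjusted p = 0.999), CDC42BPB giving -2.94 ± 1.12 and TNFAIP2 -4.60 ± 2.27.

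Beside TRAF5 on chromosome 1, 5 of the 10 neighbours were lower in Z-138 and 1 was higher, against 17.9% of all tested genes lower. The nearest gene on one side, LINC00467, was lower by a log2 difference of -1.44. It measured 87.9 and 80.1 in Z-138 and 61.9 and 72.4 in REC-1, where TRAF5 measured 374.2 and 395.7. The nearest on the other side, RCOR3, was not called (0.41). In HBL-2 TRAF5 was called higher (1.41, adjusted p = 0.0014), and 8 of its 10 neighbours were higher too, against 15.2% of all genes. HBL-2's excess of TRAF5 fell to 0.78 (adjusted p = 0.0493) without Z-138, whose low value lowers the mean of the others. Across the 48 member and line pairs, 8 neighbours were called higher for TRAF5 in HBL-2 and for BIRC2 in REC-1, and at most 4 for the rest. Neighbours called lower numbered at most 5, for TRAF5 in Z-138 and for BIRC2 in Z-138 and Maver-1. They numbered 4 for TRAF3 in Maver-1, TRAF5 in SP49, and TRAF1 and CHUK in JVM-13. BIRC2 in Maver-1, TRAF5 in SP49 and CHUK in JVM-13 were themselves not called. These counts rest on the spread between the 2 arrays of a line. Against the spread between lines on the DMSO arrays, 0 of the 10 neighbours were called for TRAF5 in Z-138 or HBL-2 or for BIRC2 in REC-1, by limma (smallest adjusted p = 1, 1 and 0.117). DNA copy number was not measured here.

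**Figure D3:**
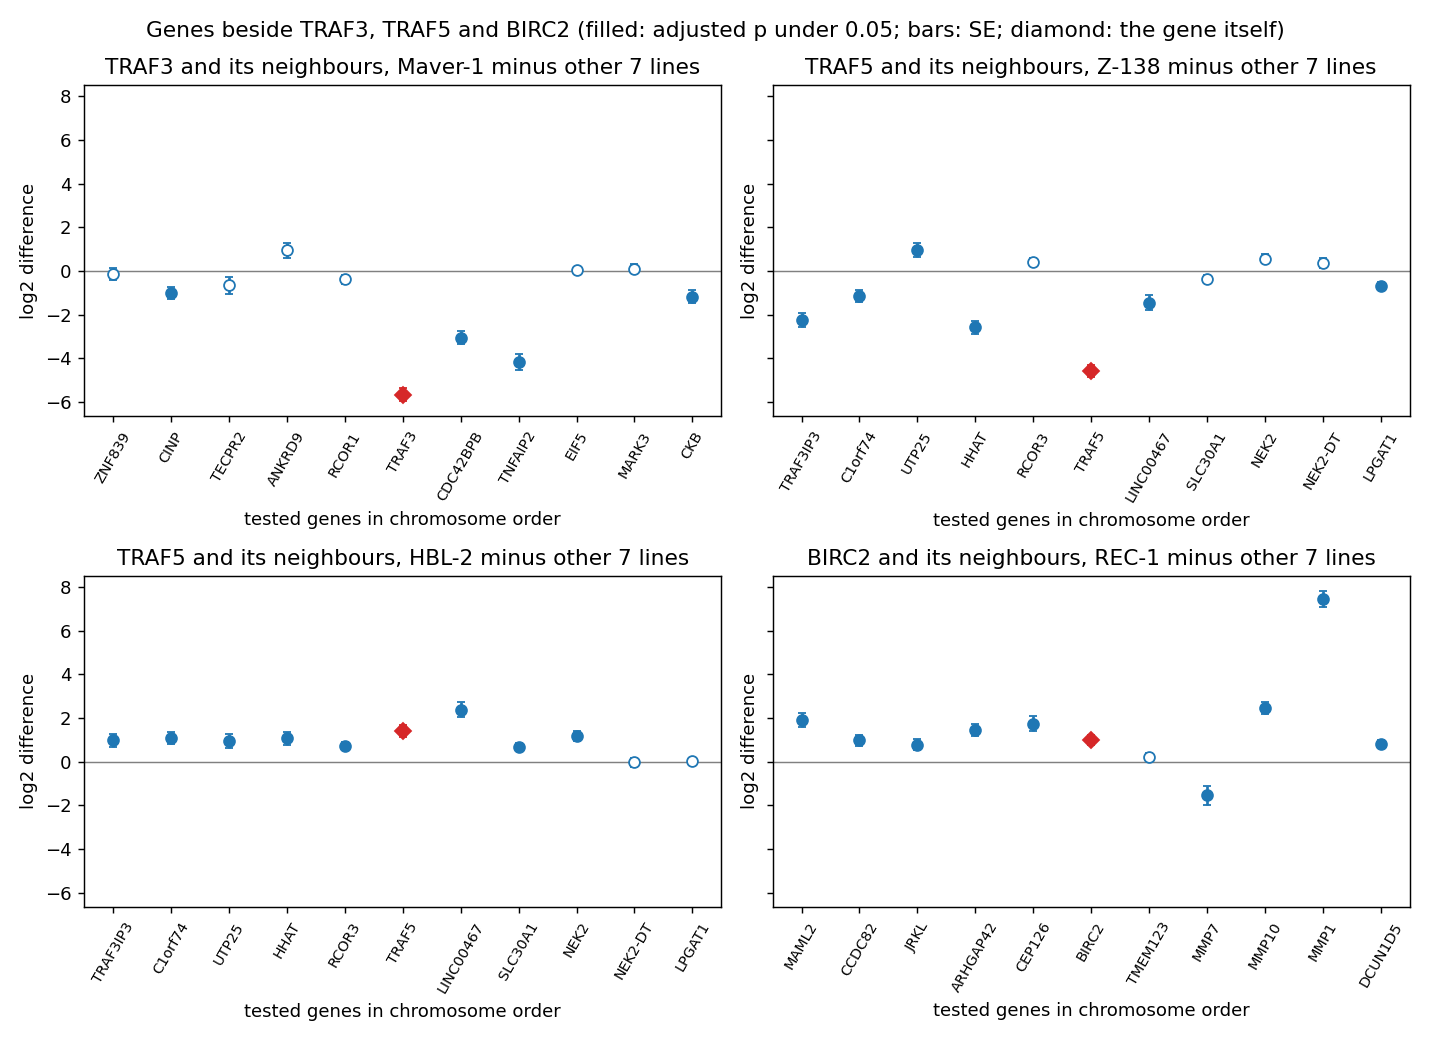
Log2 difference of 1 line from the mean of the other 7 for a member (diamond) and the 5 tested genes on each side, in chromosome order with even spacing; bars are the limma SE and filled points have an adjusted p under 0.05. TRAF3, CDC42BPB and TNFAIP2 are the 3 lowest points in Maver-1, and 8 of 10 neighbours of TRAF5 in HBL-2 and of BIRC2 in REC-1 are called higher, none of them against the spread between lines.

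TRAF1, an adaptor that binds cIAPs and is itself a known NF-κB target, had the largest log2 SD between lines of the 6 genes, with TRAF3 close to it (2.25). Under DMSO it measured 672.8 in JVM-2, 256 in GRANTA-519 and 116.7 in JVM-13. It measured 64.9 in SP49, 33.1 in Maver-1, 14.6 in HBL-2, 8.9 in REC-1 and 3.5 in Z-138. Its log2 SD over the DMSO arrays, 2.28, exceeded that of 94.9% of tested genes. Against the other lines it was higher in JVM-2 (3.88, adjusted p = 0.00127) and JVM-13 (3.36, adjusted p = 0.0029), and lower in Z-138 (-3.62, adjusted p = 0.00242) and REC-1 (-2.79, adjusted p = 0.0115), all by limma. None of the 4 was called against the spread between lines on the DMSO arrays. On both arrays of Z-138 and of REC-1, TRAF1 lay below the 60th percentile, so the sizes of those differences depend on the pseudocount. In the order of line means over both arrays, the step from JVM-13 down to GRANTA-519, 2.14, was the only one beyond 2 SE. That order rests on the AFN700 arrays, at 1214.6 in JVM-13 and 25.7 in GRANTA-519. On the DMSO arrays alone, JVM-13 lay below GRANTA-519. There the log2 differences from the other lines were 1.30 in JVM-13 and 2.57 in GRANTA-519.

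TRAF3 was also called higher in Z-138 (1.47) and REC-1 (0.86) and in JVM-13, but the mean of the other lines there includes the low value of Maver-1. Without Maver-1 the log2 differences were 0.68 in Z-138 (adjusted p = 0.059), 0.70 in JVM-13 (adjusted p = 0.0403) and 0.05 in REC-1 (adjusted p = 0.899). Tested on its own, the second TRAF3 probe set was called higher in JVM-13 (2.15) and JVM-2 (1.54), but not in Z-138 (0.66) or REC-1 (-0.24). TRAF5 in JVM-13 fell from 1.14 to 0.50 without Z-138 (limma, adjusted p = 0.158).

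BIRC2, which encodes the ubiquitin ligase cIAP1, was highest in REC-1, at 816.1 under DMSO and 791.8 with AFN700. The other DMSO arrays ran from 224.2 in Z-138 to 532.7 in JVM-2. REC-1 was higher than the other lines by 0.99 ± 0.23 (log2, limma, adjusted p = 0.00476) and Z-138 lower by -0.84 ± 0.23 (adjusted p = 0.0134). In REC-1, 8 of the 10 tested neighbours on chromosome 11 were higher and 1 lower, against 16% of all genes higher.

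MAP3K14, which encodes NIK, had a mean of 66.5 over all arrays. It was above the 60th percentile on 15 of 16 arrays, all but that of REC-1 under DMSO. Under DMSO it measured 27.9 in REC-1, 44.6 in HBL-2, 57.4 in SP49, 59.2 in Z-138, 68.1 in JVM-13, 68.9 in GRANTA-519, 86.8 in JVM-2 and 95.1 in Maver-1. REC-1 was lowest, by -0.86 ± 0.25 against the others (log2, limma, adjusted p = 0.0184), and JVM-2 was called higher by 0.82 ± 0.25 (adjusted p = 0.0231), a call lost without REC-1 (0.71, adjusted p = 0.0505). Maver-1, the line with least TRAF3 signal, had the highest DMSO value but was not called, and no 2 neighbours in the order of lines differed by more than 2 SE. CHUK, which encodes IKKα, was the most even member, from 420.4 in SP49 to 659.4 in JVM-13 under DMSO. Only 3.97% of tested genes had a smaller SD over the DMSO arrays, and no line was called.

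Between sensitive and insensitive lines under DMSO, no member passed limma's test. BIRC2 came closest, at 816.1 and 513.2 in the sensitive lines and 224.2 to 532.7 in the insensitive ones, so the groups overlapped. Its log2 difference was 0.93 ± 0.40 (adjusted p = 0.863). The other 5 members had adjusted p-values from 0.907 to 0.994. Of all tested genes, 702 had an unadjusted p under 0.05 (5.7%) and 1 (0.00813%) was called: KCNJ16, a potassium channel gene named after its value was seen, which measured at least 474.7 in both sensitive lines and at most 6.3 in the insensitive ones.

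None of the 6 genes passed the test for AFN700 across the 8 lines by limma, where 0 of 12305 genes were called (0%) and 1006 had an unadjusted p under 0.05 (8.18%). BIRC2 came closest, with higher values in 6 of 8 lines and a mean log2 difference of 0.29 ± 0.15 (adjusted p = 0.630). The largest increases were in JVM-13, from 321.2 to 609.9, and HBL-2, from 338.7 to 558.3, the lines whose arrays shifted most as a whole; in HBL-2 the actin 3′ to 5′ ratio also went from 1.90 to 16.7, and the part of either in these values was not tested. Without both lines the difference was 0.12. MAP3K14 differed by 0.12 ± 0.17, CHUK by 0.06 ± 0.13 and TRAF5 by -0.16 ± 0.18, none called.

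TRAF1 moved most in single lines, in opposite directions. It went from 256 to 25.7 in GRANTA-519 and from 116.7 to 1214.6 in JVM-13, log2 differences of -3.16 and 3.34. In JVM-13, 25.7% of all tested genes were at least 2-fold higher on the AFN700 array, against 0.926% to 9.87% in the other lines, and the part of that in the TRAF1 value was not tested. It was lower with AFN700 in 6 of 8 lines, the exceptions being HBL-2 and JVM-13. The mean was -0.26 ± 0.50 (limma, adjusted p = 0.907), and -0.78 ± 0.33 without JVM-13 (adjusted p = 0.301), where 10 genes were called in all. Without JVM-13 and HBL-2 it was -1.02 ± 0.31 (adjusted p = 0.129). The second TRAF1 probe set moved the same way in both lines, from 29.8 to 4.8 and from 21.6 to 223.9.

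**Figure D4:**
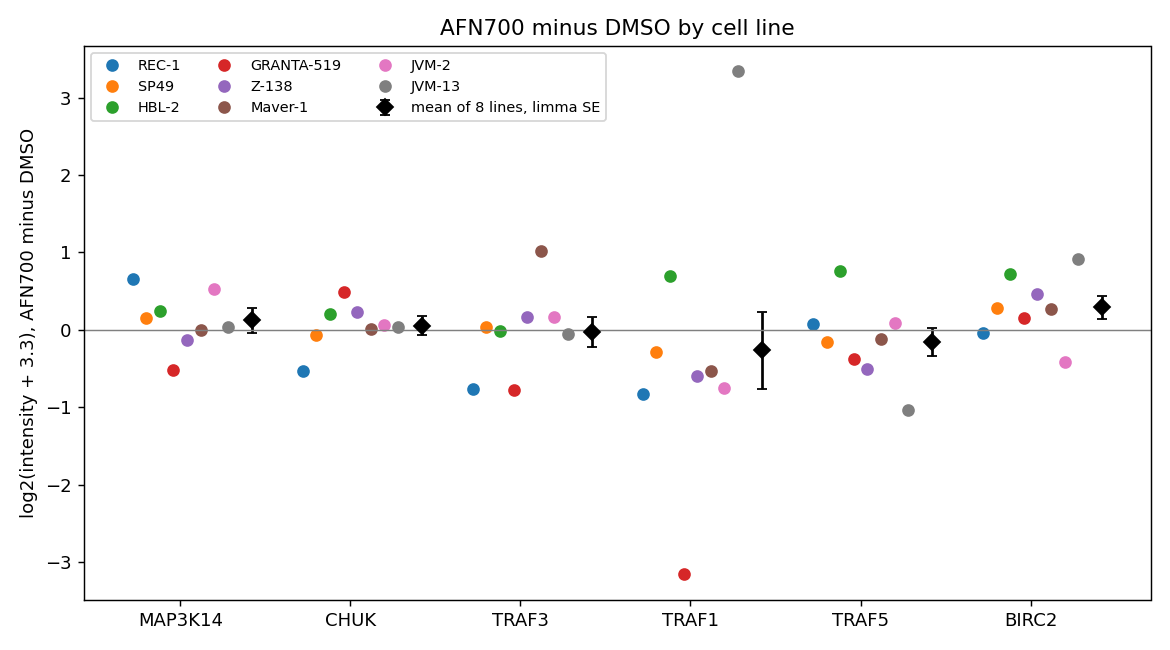
Log2 difference, AFN700 minus DMSO, of each line (coloured points) for the 6 genes, with the mean of 8 lines and its limma SE (diamond). The widest points are TRAF1 in GRANTA-519 (-3.16) and JVM-13 (3.34), and every mean lies within 2 SE of 0.

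The 2 TRAF3 probe sets differed in their response. The brighter one gave -0.03 ± 0.19 and was lower in 4 of 8 lines. The other was lower in 7 of 8 lines, with a mean of -0.52 ± 0.17 and an unadjusted p of 0.0108, which did not pass when 23510 probe sets were tested on their own (limma, adjusted p = 0.560). The Maver-1 values of both are near 0 and carry little information on a response.

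For the difference in response between sensitive and insensitive lines no member passed limma's test, with 0% of genes called and 182 at an unadjusted p under 0.05 (1.48%). CHUK was lower with AFN700 in both sensitive lines, from 553.4 to 381 in REC-1 and from 420.4 to 400.1 in SP49, and higher in all 6 insensitive ones, by log2 differences from 0.01 in Maver-1 (580.4 to 584.9) to 0.49 in GRANTA-519. With arrays centred on their medians, Maver-1 turned to -0.017, so the pattern does not hold under that scaling. Of all tested genes, 35 (0.284%) showed this sign pattern. The log2 difference of the responses was -0.48 ± 0.28 (adjusted p = 0.9997).

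Other genes of the pathway came from fixed lists of 17, 16, 22 and 10 genes, of which TRAF2 and BIRC3, among others, were not tested. For AFN700 over 8 lines limma called 0 of 14 receptors and ligands and 0 of 13 other alternative-pathway signalling genes. It also called 0 of 20 genes of the classical IKK arm and 0 of 6 readout genes. In that order the lists had median log2 differences of -0.06, -0.04, 0.01 and -0.18, beside 0.06 for all tested genes. The smallest p-values belonged to LTA, which encodes lymphotoxin-α (-0.79 ± 0.24, adjusted p = 0.466), NFKB1, the classical precursor p105 (-0.48 ± 0.15, adjusted p = 0.472), and TNFAIP3, the inhibitor A20 (-0.90 ± 0.28, adjusted p = 0.484).

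Between lines, of 14 receptors and ligands tested, 9 were lower in HBL-2, against 15.9% of all genes, and 9 were lower in Z-138, against 17.9%. In JVM-2 and JVM-13, the lines with the most TRAF1 over both arrays, 8 were higher in each, against 17.4% and 17.7%. LTA was higher by 4.06 in JVM-2 and 4.75 in JVM-13, and TNFRSF8 (CD30) by 5.25 and 4.70. In REC-1, 3 of the 14 were higher and 5 lower, against 16% and 17.9% of all genes. In SP49 the counts were 5 and 1, against 16.2% and 11.1%. GRANTA-519 had 2 and 3, against 15.4% and 11.4%, and Maver-1 had 3 and 5, against 16.2% and 14%. In Maver-1, NFKB2, the precursor that NIK and IKKα process, was higher by 1.22 (limma, adjusted p = 0.0169), at 297.5 under DMSO against 77.9 to 248.1 in the other lines. Of the 6 readout genes tested in Maver-1, NFKB2 was the 1 called higher, against 16.2% of all genes, and TNFSF13B (BAFF) the 1 called lower (-2.25, adjusted p = 0.000523), against 14%. RELB, the partner of NFKB2, was not called. The line calls of these lists rest on the spread between the 2 arrays of a line. Against the spread between lines on the DMSO arrays, 1 of 12305 genes (0.00813%) was called higher in Maver-1. The value of NFKB2 in that test is not given here.

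Genes whose line means followed a member most closely were found by Pearson's r over the 8 lines, as a description. TRAF3 was followed by ATXN7 (0.977) and MCCC1 (0.975), and TRAF5 by CASP4 (0.976) and DYNLT3 (0.972); these patterns rest largely on the 1 line where each gene is low. TRAF1 was followed by TACC1 (0.985) and GVINP1 (0.978), BIRC2 by DCAF15 (0.962) and EIPR1 (0.952), CHUK by GTF2A1 (0.966) and GPBP1L1 (0.959), and MAP3K14 by PPIB (0.945) and CBX7 (0.936). Without JVM-13 these values lay between 0.928 and 0.982.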

How the data were processed

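Expression was measured as linear array intensities, which the authors computed with MAS5 (named in the submitters' processing notes; version not given in the sources used here) and deposited per probe set. Every array's trimmed mean intensity is 150.0, so the arrays were scaled globally. Without detection calls, dim signals are not separable from background, and the number of arrays limits precision. Probe sets assigned to several genes (1801) and the 62 controls were not used. The pseudocount 3.3 is the 25th percentile of all intensities. Genes entered the tests when at least 2 arrays put them above the 60th percentile.

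Tests used limma 3.58.1 in R 4.3.3 (lmFit, eBayes with a trend), with Benjamini-Hochberg adjustment over 12305 genes and a threshold of 0.05. AFN700 fits had the cell line as a block, since the labels give both arrays of a pair the same line. The line fits had terms for line and treatment. P-values measure the spread between lines or between the arrays of a line, which may be technical. Steps were tested on simulated data. Figures used matplotlib 3.10.9.

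The members, lists and tests were chosen with earlier results of these data known. Named were all 6 members, the 2 genes most like each, and per list up to 4 genes of smallest p or largest called difference. Alternatives were other pseudocounts, normalizations, filters, probe set rules, fits and thresholds, and leaving out lines; testing every probe set, centring on the tested genes, the bounds for dim signals and reading the neighbouring genes were added after seeing the data.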

Additional observations from a re-analysis of the deposited data

Results flagged for a closer look

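TRAF3 in Maver-1 and TRAF5 in Z-138 lay far from the other lines, each on the DMSO and on the AFN700 arrays, which come from the same lines and are not independent. Chance in uniform groups gives about 1 in 20, but among all tested genes 15.2% passed on the DMSO arrays, 9.59% on the AFN700 arrays and 3.97% on both with the same line. The gap from the outlying line to the nearest other, as a share of the group's range, was 0.827 for TRAF3 in Maver-1 under DMSO and 0.757 with AFN700. It was 0.724 for TRAF5 in Z-138 under DMSO and 0.707 with AFN700. Each share exceeded Dixon's 95% critical value for 8 arrays.

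CHUK was lower with AFN700 in both sensitive lines and higher in all 6 insensitive lines, though in Maver-1 by only 0.01 (log2), and there it turned to -0.017 with centred arrays. The difference of the responses was -0.479 (log2), and limma's test of that difference did not pass (adjusted p = 0.9997).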

How the results depend on the processing

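TRAF3 in Maver-1 and TRAF5 in Z-138 were called lower under every alternative run, from -6.62 to -3.95 and from -4.73 to -2.31. Over all member values and alternatives, 662 of 701 kept their direction and side of the threshold, 23 lost the call and 16 reversed; except where stated, the cause was not tested. The AFN700 response over 8 lines had 0 calls, 0 to 10 on leaving out 1 line (10 in the absence of JVM-13) and 37 when HBL-2 was left out with it. Without the pairing by line (no replicate block) it had 0 calls, with 57 genes at an unadjusted p under 0.05, and 0 and 15 for the difference of responses.

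The 1 call between sensitive and insensitive lines under DMSO became 3 with a pseudocount of 16, 5 without a filter, 0 with at least 8 arrays above the filter, 0 with the mean of probe sets, 2 with the probe set of largest variance, 8 without a trend, 0 without JVM-13 and HBL-2, 2 at a threshold of 0.10, and 0 to 46 on leaving out 1 line (46 without SP49). The 32233 gene and line pairs called became 1076 against the spread between lines on the DMSO arrays, and 52709 with every probe set tested, where more features enter.

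Reversals were all in values not called. In the response over 8 lines, CHUK gave -0.042 with arrays centred on the tested genes and -0.0062 to 0.14 on leaving out 1 line, where GRANTA-519 decided the sign. TRAF3 gave 0.081 with a pseudocount of 1 and -0.18 to 0.080 on leaving out 1 line, and TRAF1 -0.78 to 0.15. In the difference of responses, leaving out 1 line gave -0.98 to 0.32 for TRAF1 and -0.011 to 0.35 for TRAF5; without JVM-13 and HBL-2, TRAF1 gave 0.71 and BIRC2 0.0035. In the DMSO difference, leaving out 1 line gave -0.30 to 0.10 for CHUK, -0.21 to 1.33 for TRAF3, -2.46 to 0.018 for TRAF1 and -0.66 to 0.39 for TRAF5, which gave -0.12 with the mean of probe sets and -0.064 with arrays centred on the tested genes.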
